A study of Mus musculus with 12 samples.

Results

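The metalloproteinases of the kidney cortex and their inhibitors were followed in the Tg26 mouse, a model of HIV-associated nephropathy, with and without inhibition of the double-stranded RNA-activated protein kinase PKR. Every gene whose symbol begins with Mmp, Timp, Adam, Adamts or Adamtsl and a digit was taken from the gene count table. That pattern matched 84 genes, and the 61 with at least 15 counts summed over the 12 libraries were kept, of 55450 genes in all. They are 19 of 23 Mmp genes, 3 of 4 Timp genes, 17 of 33 Adam genes, 17 of 19 Adamts genes and all 5 Adamtsl genes. At the edge of the count minimum, Mmp16 had 15 counts and was kept, and Timp4 had 14 and was not. Of the other 22 genes left out, 13 had no count in any library.

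Bulk RNA-seq was made from outer kidney cortex of FVB/N mice at 12 weeks of age, with 3 mice in each of 4 groups. C16 Tg26 mice are hemizygous for a partial HIV-1 transgene and received the PKR inhibitor C16 at 10 µg/kg in 0.5% DMSO-PBS into the peritoneum, 3 times a week from 6 weeks of age. Tg26 mice carry the same transgene and are labelled as controls for the drug. C16 WT mice lack the transgene and received C16 on the same schedule, and WT mice lack it and are labelled as controls. Whether the control mice received the solvent is not stated in the sources used here. Both sexes entered the study, matched between treatment groups. The mean level of 4 Y-linked genes was 4.68 to 5.38 log2 CPM in all 12 libraries, so these came from male mice. Because the libraries come from whole cortex, fewer cells of a type and less RNA per cell cannot be told apart in any value below.

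Matrix metalloproteinases (MMPs) are zinc-dependent enzymes that cut collagen, basement membrane and many secreted proteins, and most are made as inactive precursors. ADAM proteases sit in the cell membrane and shed growth factors, cytokines and adhesion molecules from it, while ADAMTS proteases are secreted and act on proteoglycans, procollagens and microfibrils. ADAMTS-like proteins resemble the ADAMTS family but have no protease domain. The tissue inhibitors of metalloproteinases (TIMPs) bind and block MMPs and some ADAM and ADAMTS proteases, and scarring kidneys are known for rearranging this balance.

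Several inducible MMP genes lie next to each other on mouse chromosome 9. In the GRCm38 assembly the group spans 427.1 kb between 7272514 and 7699585 and holds 10 genes of the symbol pattern, of which 7 were among the 61. The upstream sequences of 5 of these 7 are shown, chosen because they held the AP-1 letters described below. RefSeq gave a promoter window for 40 of the 61 members, and the 250 bases before the transcription start were searched on both strands. The letters TGANTCA, which read the same on both strands and are the core of the site bound by the AP-1 factors Jun and Fos, occurred in the windows of 6 of the 40 members (15%) and of 7.82% of all 27025 genes with a window. The 6 members were Adam19, Mmp10, Mmp12, Mmp13, Mmp3 and Mmp7, and all but Adam19 are neighbours in this group. Each line below gives 70 bases of GRCm38.p6 on the plus strand of chromosome 9, with the match in capitals.

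Mmp13 (chr9:7272444-7272513): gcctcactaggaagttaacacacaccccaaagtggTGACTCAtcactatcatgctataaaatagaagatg

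Mmp12 (chr9:7347299-7347368): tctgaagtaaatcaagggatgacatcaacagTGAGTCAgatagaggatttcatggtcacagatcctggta

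Mmp3 (chr9:7445745-7445814): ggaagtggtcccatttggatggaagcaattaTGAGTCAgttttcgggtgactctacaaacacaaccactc

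Mmp10 (chr9:7502248-7502317): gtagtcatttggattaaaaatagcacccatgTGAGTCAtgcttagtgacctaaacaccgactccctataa

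Mmp7 (chr9:7691996-7692065): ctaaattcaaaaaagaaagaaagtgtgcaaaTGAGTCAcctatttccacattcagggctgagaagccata

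The match began 35 bases before the start of Mmp13, 44 before the downstream start of Mmp12, 46 before that of Mmp3 and 63 before those of Mmp10 and Mmp7. The windows of Mmp8 and Mmp27 in the same group did not hold these letters. Those of Mmp1a, Mmp1b and Mmp20 did hold them, and these 3 genes had between 0 and 3 counts in all. Of the other letters searched, the TATA box TATAAA was found in 15% of the members and 14.3% of all genes, the ETS core CAGGAAG in 20% and 12.1%, and the STAT core TTCNNNGAA in 5.0% and 8.13%. A match describes the sequence and was not tested as a binding site.

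Each library held 19877877 to 27000388 counts. Levels are given as CPM, the counts of a gene scaled to a common library size, after TMM scaling, and a gene is said to be called, to rise or to fall when edgeR's quasi-likelihood test over all 16094 tested genes gave an adjusted p under 0.05. Of the 61 members 49 passed the filter on low counts, and the 12 that did not had 15 to 100 counts in all. All libraries held tubule RNA, since 10 proximal tubule markers summed to between 15169.8 CPM and 48753 CPM, lowest in Tg26 replicate 1. Tg26 replicate 1 stood apart, and among the 37 members called higher in Tg26 mice it was the highest of the 3 Tg26 libraries for 31. Its thick limb, distal tubule and collecting duct markers summed to 2341 CPM, against 4370 and 4936 CPM in Tg26 replicates 2 and 3. Its fibroblast and injured tubule sums, 1979.7 and 1051 CPM, were the highest of the group.

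The most abundant member was an inhibitor. Timp3 encodes the inhibitor that binds to extracellular matrix and blocks ADAM17 and several ADAMTS proteases as well as MMPs. Its level was 2731, 1946 and 1977 CPM in C16 Tg26, 1494, 1737 and 1819 CPM in Tg26, 2640.2, 2517 and 2699.6 CPM in C16 WT and 2395, 2289.5 and 2402 CPM in WT. All 3 Tg26 libraries were thus below all other libraries. Per kilobase of exon the mean level of Timp3 was 272 ± 54.6 CPM in C16 Tg26, 207 ± 20.8 in Tg26, 322 ± 11.5 in C16 WT and 290.0 ± 7.73 in WT (SD, n = 3 each), the highest of all members in every group. Timp3 made up 57.3% to 68.1% of the summed CPM of the members in Tg26 libraries and 81.0% to 81.5% in WT libraries. The log2 fold change of Timp3 was -0.49 ± 0.14 (SE) in Tg26 against WT (adjusted p = 0.0269), and this call was lost without any 1 of the 3 WT libraries or without Tg26 replicate 1 (log2 fold changes from -0.55 to -0.42 over all libraries left out, adjusted p up to 0.0683). With library sizes alone in place of TMM, which moved the median of all genes to 0.29, the fold change of Timp3 was -0.19. Timp3 shares exon sequence with Syn3 on the opposite strand.

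Timp1 is the inducible inhibitor of the family and binds the precursor of MMP9. It had 2.64, 7.08 and 4.19 CPM in C16 Tg26, 32.0, 6.43 and 4.20 CPM in Tg26, 0.233, 0.264 and 0.234 CPM in C16 WT and 0.549, 0.0844 and 0 CPM in WT. The 6 transgenic libraries were all above the 6 libraries without the transgene, and Tg26 replicate 1 was far above the other Tg26 libraries. Timp1 had 14 counts over the WT libraries and 15 over the C16 WT libraries. It passed the filter on low counts only through transgenic libraries, so a rise was close to fixed in advance. In Tg26 against WT, Timp1 rose by 6.04 ± 0.99 on the log2 scale (adjusted p = 0.00157). The value was 4.61 without Tg26 replicate 1 and 8.15 without WT replicate 1, and it stayed called in all 12 fits that left out 1 library. Against C16 WT, Timp1 was higher by 4.23 in C16 Tg26 but did not pass the test (adjusted p = 0.0857 with edgeR, 0.00532 with DESeq2).

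Timp2 has a second role beside inhibition, since it bridges the precursor of MMP2 to the membrane-bound enzyme MMP14 that activates it. Timp2 had 36.2, 42.2 and 53.1 CPM in C16 Tg26, 117, 94.4 and 89.1 CPM in Tg26, 28.7, 22.3 and 26.4 CPM in C16 WT and 26.2, 31.4 and 35.9 CPM in WT. Tg26 libraries were above all others, and C16 Tg26 libraries lay between them and both WT groups without overlap. Timp2 rose in Tg26 against WT by 1.68 ± 0.17 (adjusted p = 0.000195) and fell in C16 Tg26 against Tg26 by 1.19 ± 0.17 on the log2 scale (adjusted p = 0.0278).

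**Figure D1:**
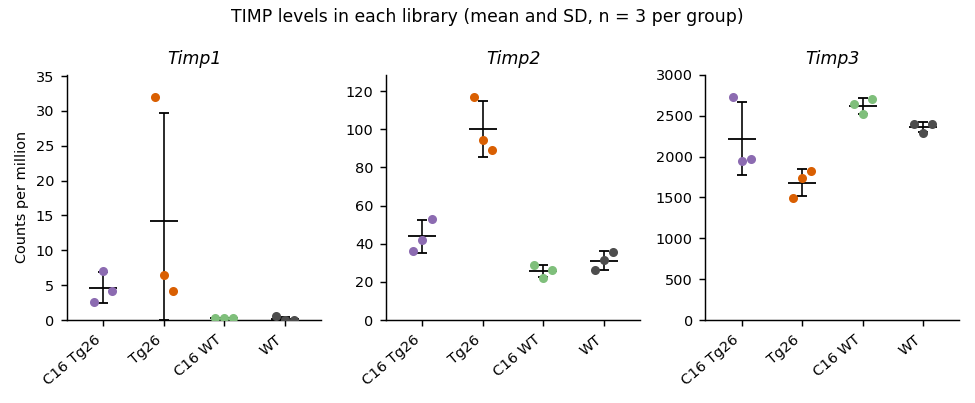
CPM of Timp1, Timp2 and Timp3 in each of the 12 libraries (points), with the mean and SD of each group (bars, n = 3). Timp1 and Timp2 are high in Tg26, where Timp1 ranges from 4.20 to 32.0 CPM, and Timp3 is lowest there, at 1494 to 1819 CPM.

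In Tg26 against WT, 37 of the 49 tested members rose and 2 fell, against 15.7% of all tested genes called higher and 10.5% called lower. Some of these members, among them Mmp3, Mmp7, Mmp10, Mmp25, Timp1, Adamts4 and Adam23, passed the filter on low counts only through transgenic libraries. A rise was therefore close to fixed for them in advance. The median log2 fold change of the members was 1.66, against -0.01 over all tested genes. In 37 members the 3 Tg26 libraries lay wholly above the 3 WT libraries and in 2 wholly below, against 21.5% and 18.1% of all genes. Of the MMPs 13 of 15 rose, of the ADAM genes 9 of 14 rose and 1 fell (median 0.59), of the ADAMTS genes 9 of 13 rose (median 1.41), and all 4 tested ADAMTS-like genes rose (median 1.87). The median over all members stayed the same with the 2 genes that had no WT count placed at the lower bounds given below.

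**Figure D2:**
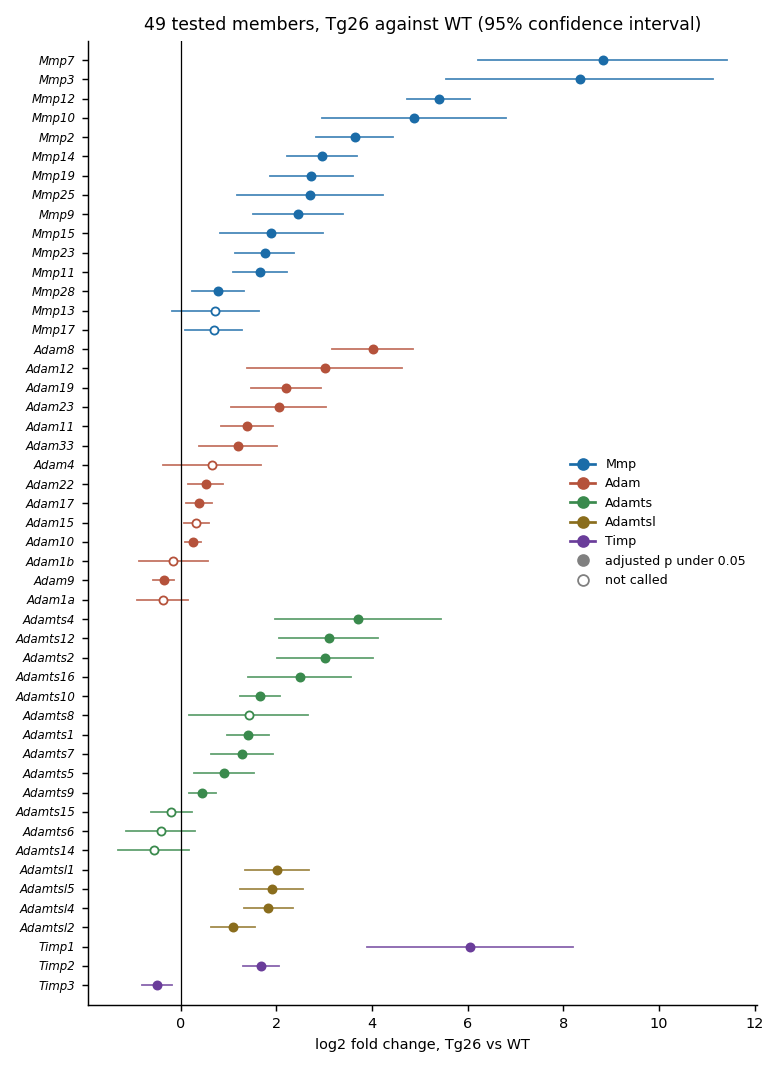
Log2 fold change of the 49 tested members in Tg26 against WT (points) with 95% confidence intervals derived from edgeR's quasi-likelihood F statistic (lines), by family. Filled points are called, 37 to the right of 0 and 2, Adam9 and Timp3, to the left; the fitted values of Mmp7 and Mmp3 depend on the prior count because no WT library held a read of them.

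Mmp12, the macrophage elastase, gave the smallest p of the members. It had 26.9, 23.2 and 22.6 CPM in Tg26, against 0.687, 0.549 and 0.482 CPM in WT. The Tg26 libraries were close to each other, and the log2 fold change was 5.39 ± 0.30 (adjusted p = 1.05e-05). Adam8, a membrane protease of myeloid cells, had 15.4, 10.7 and 12.1 CPM in Tg26, against 1.01, 0.675 and 0.674 CPM in WT (log2 fold change 4.01 ± 0.39, adjusted p = 0.000172). Neither pair of groups overlapped, and both genes stayed called in all 12 fits that left out 1 library. Adam19, a membrane protease that sheds neuregulins, had 18.1, 7.67 and 8.17 CPM in Tg26, against 2.11, 2.95 and 2.31 CPM in WT (log2 fold change 2.20 ± 0.33, adjusted p = 0.00105).

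Markers of some other cells moved with these genes. All 10 macrophage markers rose in Tg26, and their summed level was 638 to 1069 CPM in Tg26 and 96.4 to 129 CPM in WT. All 9 fibroblast and myofibroblast markers rose, with sums of 471 to 1979.7 CPM in Tg26 and 115 to 133 CPM in WT, and all 8 markers of injured tubule rose, with sums of 434 to 1051 CPM in Tg26 and 154 to 168 CPM in WT. Of 10 proximal tubule markers 8 fell. Of the neutrophil markers 1 of 4 tested rose, and Elane was at 0 in all Tg26 libraries and Ly6g in all WT libraries. Other lists moved less. T cell markers rose in 1 of 6, endothelial in 2 of 7 and podocyte in 1 of 6, and none of 5 B and plasma cell markers was called. Of the 8 thick limb, distal tubule and collecting duct markers 1 fell. The part of these shifts in the members' changes was not tested.

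The gelatinase Mmp2 cuts denatured collagen and basement membrane collagen. It had 48.2, 28.5 and 21.3 CPM in Tg26, against 1.79, 2.87 and 3.23 CPM in WT (log2 fold change 3.64 ± 0.37, adjusted p = 0.000195). Its membrane-bound activator Mmp14 had 68.5, 33.8 and 32.9 CPM in Tg26, against 4.35, 6.67 and 6.36 CPM in WT (2.96 ± 0.34, adjusted p = 0.000283). With Timp2, all 3 genes of this activating complex were higher in every Tg26 library than in any WT library. The other gelatinase, Mmp9, rose as well (log2 fold change 2.46), with 3.75, 2.166 and 2.80 CPM in Tg26 and 0.641, 0.633 and 0.289 CPM in WT.

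Of the other secreted MMPs, Mmp19 had 6.20, 8.49 and 4.31 CPM in Tg26, against 0.915, 0.507 and 1.44 CPM in WT (log2 fold change 2.73 ± 0.40, adjusted p = 0.00087). Mmp11, which is activated by furin inside the cell, had 7.44, 5.33 and 6.18 CPM in Tg26, against 2.01, 2.41 and 1.54 CPM in WT (1.66 ± 0.26, adjusted p = 0.00128). Tg26 and WT libraries did not overlap for either gene. Mmp11 shares exon sequence with Chchd10 on the opposite strand, and Mmp12, Mmp19 and Mmp7 likewise overlap opposite-strand genes. In all, 16 of the 61 members overlap exons of another gene, and the strand setting of the counting is not given in the sources used here.

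The matrilysin Mmp7, which is made by epithelia, had no count in any WT library. Its level was 3.59, 1.65 and 1.66 CPM in Tg26, at least 16.9-fold higher than WT when each WT library is set at a floor of 3 counts (adjusted p = 0.00103). The stromelysin Mmp3 was likewise without a WT count and had 3.38, 0.894 and 0.663 CPM in Tg26, at least 12.1-fold higher (adjusted p = 0.00186). Mmp10, the other stromelysin of the group, had 92 counts over the Tg26 libraries and 2 over the WT libraries, a ratio of 34.5 with a 95% counting interval of 9.27 to 289. The intervals and floors cover counting error only.

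In map order the 7 genes of the chromosome 9 group differed from each other. Mmp12, Mmp3, Mmp10 and Mmp7 rose, while the collagenase Mmp13 did not pass the test, with 1.43, 2.54 and 0.994 CPM in Tg26 and 1.05, 0.886 and 1.06 CPM in WT (log2 fold change 0.73, 95% interval -0.18 to 1.64, adjusted p = 0.222). Mmp8, the neutrophil collagenase, and Mmp27 did not pass the filter on low counts. Mmp8 had 0.651, 0.206 and 0.221 CPM in Tg26 and 0.320, 0.422 and 0.433 CPM in WT, which overlap, and Mmp27 had 22 counts in Tg26 and none in WT, at least 1.77-fold.

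**Figure D3:**
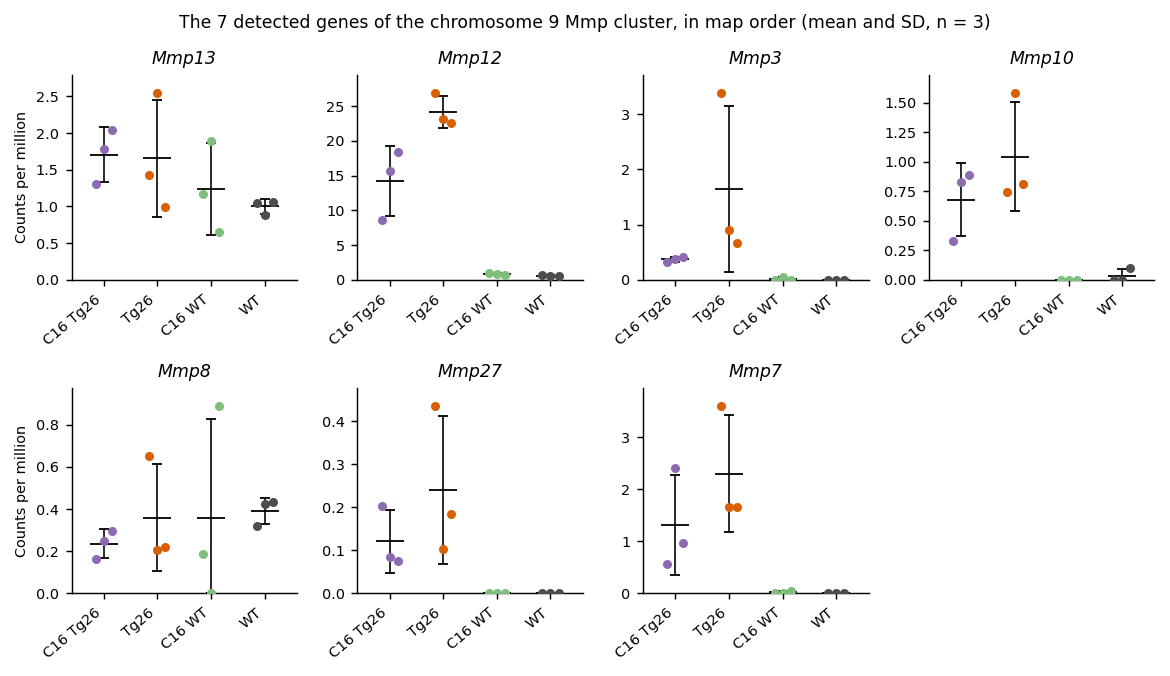
CPM of the 7 members of the chromosome 9 group in each library (points), in map order, with the mean and SD of each group (bars, n = 3). Mmp12, Mmp3, Mmp10 and Mmp7 lie near 0 in C16 WT and WT libraries and above them in all C16 Tg26 and Tg26 libraries, while Mmp13 overlaps between groups.

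Among the secreted ADAMTS proteases, Adamts1, which cuts versican and aggrecan, had 93.1, 69.3 and 72.3 CPM in Tg26, against 34.6, 20.5 and 33.3 CPM in WT (log2 fold change 1.41 ± 0.20, adjusted p = 0.000823). Adamts2, which removes the amino-terminal propeptide of procollagen, had 36.5, 13.4 and 8.95 CPM in Tg26, against 2.65, 2.28 and 2.36 CPM in WT. The highest of these came from Tg26 replicate 1, and the log2 fold change of 3.01 ± 0.46 (adjusted p = 0.00112) was 2.19 without that library. Adamts10, which binds fibrillin microfibrils, had 25.9, 21.8 and 20.2 CPM in Tg26, against 6.00, 7.43 and 7.995 CPM in WT (1.66 ± 0.19, adjusted p = 0.000287). Adamts12 had 6.69, 3.47 and 2.21 CPM in Tg26, against 0.503, 0.549 and 0.385 CPM in WT (3.09 ± 0.47, adjusted p = 0.00108). None of these 4 genes overlapped between the groups. The related procollagen protease Adamts14 did not follow Adamts2, with 2.169, 2.20 and 2.172 CPM in Tg26 and 1.79, 3.29 and 4.62 CPM in WT (log2 fold change -0.57, 95% interval -1.30 to 0.17).

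The ADAMTS-like proteins bind fibrillin microfibrils and have no enzyme activity. Adamtsl4 had 15.1, 9.77 and 9.83 CPM in Tg26, against 2.98, 3.33 and 3.42 CPM in WT (log2 fold change 1.83 ± 0.23, adjusted p = 0.000469). Adamtsl1 had 6.69, 5.19 and 6.33 CPM in Tg26, against 1.33, 1.01 and 2.167 CPM in WT (2.02 ± 0.31, adjusted p = 0.00106). Both were higher in every Tg26 library, as was Adamtsl5, with 9.67, 5.16 and 6.66 CPM in Tg26 and 1.88, 1.52 and 2.36 CPM in WT (1.90 ± 0.30, adjusted p = 0.00132). The fourth tested member, Adamtsl2, rose by 1.09.

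The broadly expressed sheddases moved little. Adam9 was lower in Tg26, with 89.4, 106 and 116 CPM, than in WT, with 126, 135 and 137 CPM (log2 fold change -0.35 ± 0.10, adjusted p = 0.0222), and leaving out replicate 2 or 3 of WT ended the call (adjusted p up to 0.0709). Adam10, which starts Notch receptor cleavage, and Adam17, which releases TNF and ligands of the EGF receptor, rose by 0.25 and 0.39 on the log2 scale. Adam10 was called in 8 and Adam17 in 5 of the 12 fits that left out 1 library, and both calls were lost when Tg26 replicate 1 or either WT replicate 2 or WT replicate 3 was left out (adjusted p up to 0.108 for Adam10 and 0.150 for Adam17). Adam22, an ADAM without the catalytic motif and a neuronal receptor, had 6.76, 6.60 and 8.43 CPM in Tg26, against 5.03, 5.32 and 4.77 CPM in WT (0.53 ± 0.17, adjusted p = 0.0376), and was called in 5 of 12 fits that left out 1 library. With library sizes alone, the fold change of Adam9 was -0.05, against a median of 0.29 over all genes.

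Other members called higher were Adam11, Adam12, Adam23 and Adam33, Adamts4, Adamts5, Adamts7, Adamts9 and Adamts16, and Mmp15, Mmp23, Mmp25 and Mmp28, with log2 fold changes from 0.46 in Adamts9 to 3.70 in Adamts4. Of these, Adam23, Adamts4 and Mmp25 passed the filter on low counts only through transgenic libraries. The tested members not called were Adam15, Adam1a, Adam1b, Adam4, Adamts14, Adamts15, Adamts6, Adamts8, Mmp13 and Mmp17. Of the 37 members that rose, 27 were called in all 12 fits that left out 1 library, and the count was 28 without WT replicate 2, 29 without Tg26 replicate 1 and up to 39 without C16 WT replicate 3. All 39 called members kept their sign in every such fit.

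Among the 12 members too low for the test, the membrane-type gene Mmp24 had 73 counts in Tg26 and 1 in WT, a ratio of 54.7 with a 95% counting interval of 9.51 to 2189. Adamtsl3 had 18 counts in Tg26 and 1 in WT, a ratio of 13.5 (2.13 to 562), and Adamts20 had 6 and 1, a ratio of 4.49 (0.545 to 207). The Adamtsl3 counts were 10, 8 and 0 in the Tg26 libraries, so the groups overlapped. Adam5 had 0.465, 0.344 and 0.221 CPM in Tg26, against 0.0915, 0.127 and 0.0482 CPM in WT, without overlap. The remaining low members, Adam21, Adam32, Adamts13, Adamts17, Adamts3 and Mmp16, were below 0.5 CPM in every Tg26 and WT library.

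In C16 Tg26 against Tg26, 12 of the 49 tested members fell and none rose, against 2.66% of all tested genes called lower and 0.758% called higher. The median log2 fold change of the members was -0.82, against -0.01 over all genes. The Tg26 libraries are the same ones that entered the comparison of Tg26 with WT. In 25 members all 3 C16 Tg26 libraries lay below all 3 Tg26 libraries, and in 2 above, against 15.1% and 12.4% of all genes. At an unadjusted p under 0.05, 27 members were lower and 1 higher, against 15% and 10.7% of all genes. DESeq2 called 19 members lower and 1, Timp3, higher, and 11.9% of all genes in either direction.

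The genes that fell were Timp2, Adamtsl4, Adamtsl5, Mmp2, Mmp19, Adam22, Adamtsl1, Mmp14, Adamts10, Adamts2, Adamts1 and Adamts12, with adjusted p between 0.0278 and 0.0468. No member fell in the fits without Tg26 replicate 1, C16 Tg26 replicate 1 or C16 Tg26 replicate 2, nor in a fit of these 2 groups alone, and the number of genes called in either direction was then 10, 0, 0 and 0, against 550 with all libraries. The count was 5 without WT replicate 2, C16 WT replicate 1, C16 WT replicate 2 or C16 Tg26 replicate 3, and 9 to 15 without each of the others. The 12 fold changes were below 0 in all 12 of those fits.

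Mmp2 fell to 7.24, 6.58 and 13.9 CPM in C16 Tg26, against 48.2, 28.5 and 21.3 CPM in Tg26 (log2 fold change -1.82 ± 0.33, adjusted p = 0.0320). Mmp14 had 10.3, 15.1 and 22.2 CPM in C16 Tg26, against 68.5, 33.8 and 32.9 CPM in Tg26 (-1.50 ± 0.31, adjusted p = 0.0365). For both genes, as for Timp2, every C16 Tg26 library was below every Tg26 library and above every library without the transgene. Mmp19 had 1.46, 1.41 and 2.22 CPM in C16 Tg26, against 6.20, 8.49 and 4.31 CPM in Tg26 (-1.89 ± 0.37, adjusted p = 0.0356).

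The microfibril and procollagen genes gave the next group. Adamtsl4 had 3.13, 4.01 and 5.37 CPM in C16 Tg26, against 15.1, 9.77 and 9.83 CPM in Tg26 (log2 fold change -1.47 ± 0.23, adjusted p = 0.0278), and Adamtsl5 had 2.80, 1.78 and 2.04 CPM in C16 Tg26, against 9.67, 5.16 and 6.66 CPM in Tg26 (-1.70 ± 0.30, adjusted p = 0.0302). Adamtsl1 had 1.59, 1.95 and 3.04 CPM in C16 Tg26, against 6.69, 5.19 and 6.33 CPM in Tg26 (-1.47 ± 0.29, adjusted p = 0.0357). These 3 ADAMTS-like genes overlapped between C16 Tg26 and at least 1 of the groups without the transgene. Adamts10 had 12.5, 10.1 and 15.2 CPM in C16 Tg26, against 25.9, 21.8 and 20.2 CPM in Tg26 (-0.85 ± 0.18, adjusted p = 0.0378). Adamts2 had 4.19, 4.59 and 5.96 CPM in C16 Tg26, against 36.5, 13.4 and 8.95 CPM in Tg26, and its log2 fold change of -2.00 ± 0.43 (adjusted p = 0.0378) was -1.182 without Tg26 replicate 1. Both of these genes lay between Tg26 and the groups without the transgene in all C16 Tg26 libraries.

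Adamts1 and Adam22 overlapped between C16 Tg26 and C16 WT but not between C16 Tg26 and WT. Adamts1 had 45.8, 37.2 and 44.5 CPM in C16 Tg26, against 93.1, 69.3 and 72.3 CPM in Tg26 (log2 fold change -0.88 ± 0.20, adjusted p = 0.0410), beside 44.4, 45.9 and 32.6 CPM in C16 WT and 34.6, 20.5 and 33.3 CPM in WT, all of which lay below C16 Tg26. Adam22 had 3.90, 3.48 and 4.52 CPM in C16 Tg26, against 6.76, 6.60 and 8.43 CPM in Tg26 (-0.87 ± 0.17, adjusted p = 0.0356), beside 4.52, 3.80 and 5.05 CPM in C16 WT and 5.03, 5.32 and 4.77 CPM in WT, all of which lay above C16 Tg26. In C16 Tg26 against C16 WT the log2 difference was 0.05 for Adamts1 (95% interval -0.38 to 0.49) and -0.17 for Adam22 (-0.54 to 0.21). Adamts12, the last of the 12, had 1.179, 0.869 and 1.52 CPM in C16 Tg26, against 6.69, 3.47 and 2.21 CPM in Tg26 (-1.79 ± 0.43, adjusted p = 0.0468).

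**Figure D4:**
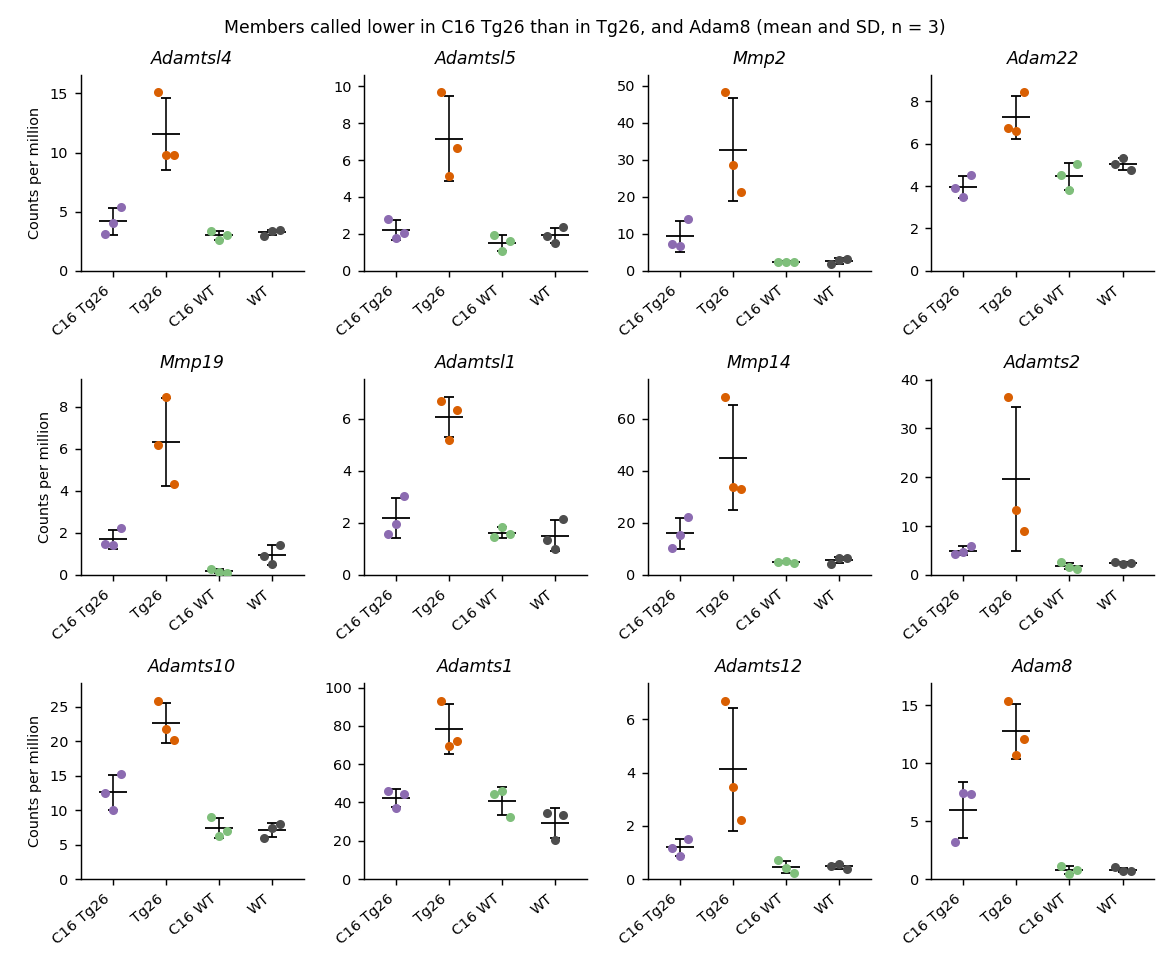
CPM in each library (points) of 11 of the 12 members called lower in C16 Tg26 than in Tg26, and of Adam8, with the mean and SD of each group (bars, n = 3). In each of the 12 panels the 3 Tg26 libraries lie above the 3 C16 Tg26 libraries, and the highest Tg26 point stands at 48.2 CPM in Mmp2, 68.5 CPM in Mmp14 and 36.5 CPM in Adamts2.

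Mmp12 and Adam8, which had the smallest p of all members in Tg26 against WT, were not among those 12. Mmp12 had 8.62, 15.7 and 18.4 CPM in C16 Tg26, against 26.9, 23.2 and 22.6 CPM in Tg26 (log2 fold change -0.77 ± 0.22, adjusted p = 0.0713 with edgeR and 0.0345 with DESeq2). Adam8 had 3.21, 7.45 and 7.33 CPM in C16 Tg26, against 15.4, 10.7 and 12.1 CPM in Tg26 (-1.08 ± 0.32, adjusted p = 0.0724 with edgeR and 0.0205 with DESeq2). For both, the C16 Tg26 libraries were below the Tg26 libraries without overlap. Mmp7 overlapped, with 0.569, 2.40 and 0.963 CPM in C16 Tg26 and 3.59, 1.65 and 1.66 CPM in Tg26 (-0.82, 95% interval -2.03 to 0.40), and so did Timp1 (-1.62 ± 0.70, adjusted p = 0.173). Adam19, at 4.51, 6.12 and 6.56 CPM in C16 Tg26, was below all Tg26 libraries (-0.98 ± 0.31, adjusted p = 0.0848), while Mmp11, at 4.23, 4.47 and 7.19 CPM, overlapped them (-0.25, 95% interval -0.79 to 0.28).

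Adam9 and Timp3, the 2 members called lower in Tg26, had log2 fold changes of 0.16 (95% interval -0.06 to 0.38) and 0.40 (0.09 to 0.71) in C16 Tg26 against Tg26, with adjusted p of 0.335 and 0.113. Timp3 was higher in every C16 Tg26 library than in any Tg26 library, and Adam9, at 120.3, 118 and 109 CPM in C16 Tg26, overlapped the Tg26 range. With DESeq2 the adjusted p of Timp3 was 0.0366.

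Marker levels moved in this comparison too. The summed macrophage markers were 270.3, 401 and 540.4 CPM in C16 Tg26 replicates 1, 2 and 3, against 638 to 1069 CPM in Tg26, and 3 of the 10 were called lower. The fibroblast and myofibroblast markers summed to 252 to 401 CPM in C16 Tg26 and 471 to 1979.7 CPM in Tg26, with 4 of 9 called lower, and 1 of 8 injured tubule markers was lower. The proximal tubule markers summed to 32495 to 40323 CPM in C16 Tg26 and 15169.8 to 30549 CPM in Tg26, with 1 of 10 called higher and a median log2 fold change of 0.52. C16 Tg26 replicate 3 was the highest of its group for 10 of the 12 members that fell, and for the macrophage and fibroblast sums. The part of these markers in the members' fall was not tested.

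In C16 Tg26 against C16 WT, 7 members were called higher and none lower, against 0.69% and 0.00621% of all tested genes. They were Mmp12, Adam8, Mmp19, Mmp7, Mmp2, Mmp14 and Mmp10. Of these, Mmp7 and Mmp10 passed the filter on low counts only through transgenic libraries. The median over the 49 members was 0.48, and 23 had all 3 C16 Tg26 libraries above all C16 WT libraries (11.3% of all genes), with 2 wholly below (6.79%). DESeq2 called 11 higher and limma-voom 12, where they called 379 and 349 of the 16094 genes in either direction, against 112 with edgeR.

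Mmp12 was again the member with the smallest p, at 8.62, 15.7 and 18.4 CPM in C16 Tg26, against 0.978, 0.791 and 0.701 CPM in C16 WT (log2 fold change 4.10 ± 0.29, adjusted p = 0.000133), and it was called in all 12 fits that left out 1 library. Adam8 had 3.21, 7.45 and 7.33 CPM in C16 Tg26, against 1.12, 0.422 and 0.794 CPM in C16 WT (2.93 ± 0.38, adjusted p = 0.00844). Mmp19 had 1.46, 1.41 and 2.22 CPM in C16 Tg26, against 0.279, 0.158 and 0.0934 CPM in C16 WT (3.22 ± 0.51, adjusted p = 0.0173). All 3 genes were wholly separate between the groups. Mmp19 had only 11 counts over the C16 WT libraries, however. Its C16 Tg26 libraries overlapped those of WT, at 0.915, 0.507 and 1.44 CPM.

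Mmp7 had 98 counts over the C16 Tg26 libraries and 1 over the C16 WT libraries, a ratio of 80.0 with a 95% counting interval of 14.02 to 3191 (adjusted p = 0.0378), and Mmp10 had 52 and 0, at least 4.66-fold (adjusted p = 0.0458). Mmp2 and Mmp14 were higher by 1.91 ± 0.37 and 1.68 ± 0.33 on the log2 scale (adjusted p = 0.0443 and 0.0458). Mmp2 had 7.24, 6.58 and 13.9 CPM in C16 Tg26, against 2.47, 2.43 and 2.48 CPM in C16 WT. All but the call of Mmp12 depended on single libraries: 1 member was called without C16 WT replicate 2 or replicate 3, 2 without C16 WT replicate 1, C16 Tg26 replicate 2 or C16 Tg26 replicate 3, 3 without Tg26 replicate 2, 4 without WT replicate 2 or WT replicate 3, and 11 without Tg26 replicate 1. Of the macrophage markers 2 of 10 were called higher here, with sums of 270.3 to 540.4 CPM in C16 Tg26 and 125 to 171 CPM in C16 WT, and of the injured tubule markers 2 of 8. Of the T cell markers 2 of 6 were called higher, with sums of 7.399 to 15.9 CPM in C16 Tg26 and 2.43 to 3.18 CPM in C16 WT. No marker of the other cell types was called, among them the 9 fibroblast and myofibroblast markers. The part of these markers was not tested.

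**Figure D5:**
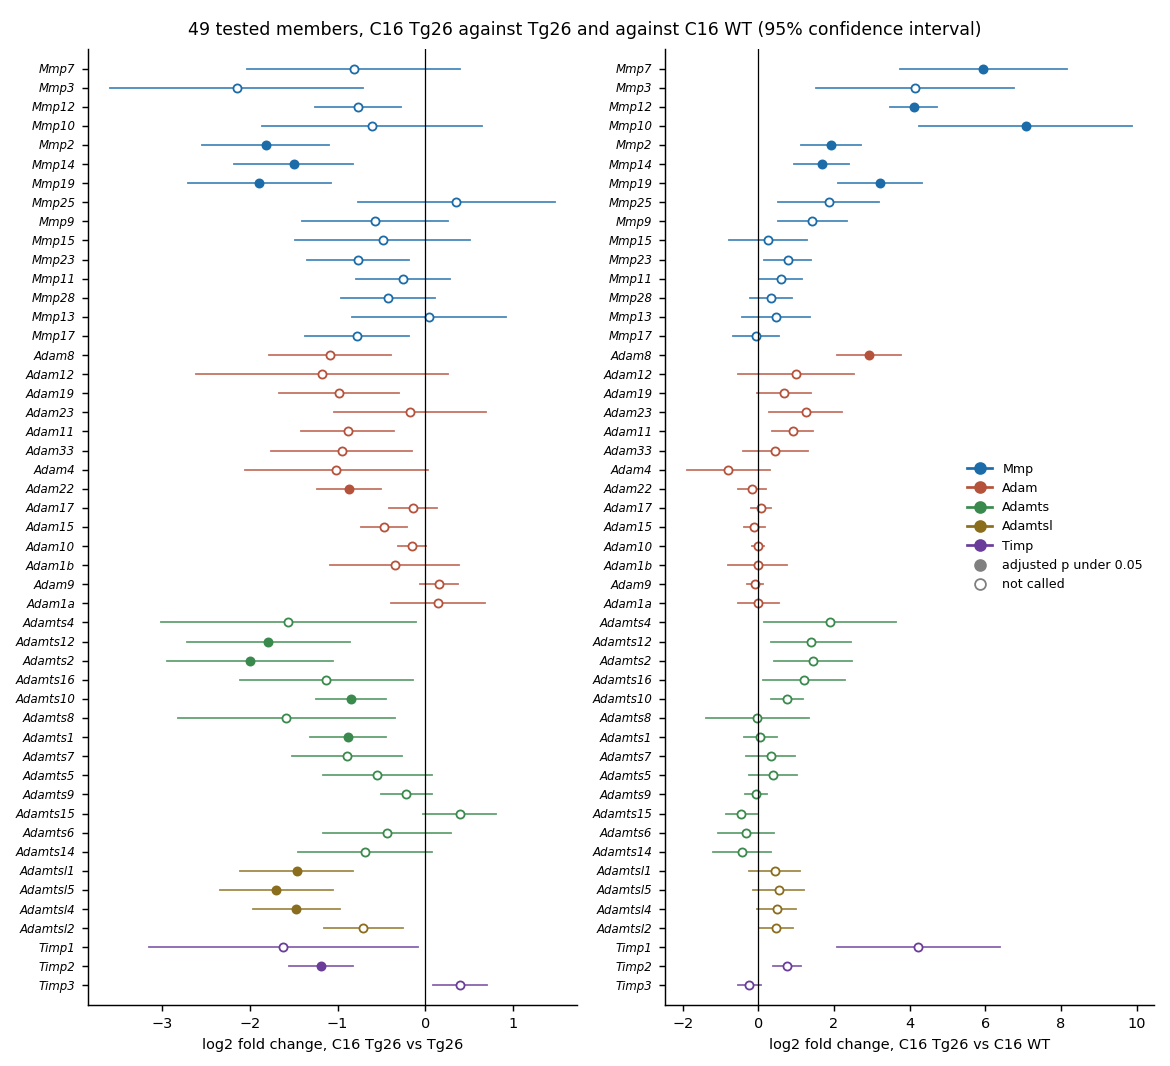
Log2 fold changes of the 49 tested members in C16 Tg26 against Tg26 and in C16 Tg26 against C16 WT (points), with 95% confidence intervals (lines); the 2 panels have their own scales and share the C16 Tg26 libraries. Filled points are called, 12 of them below 0 against Tg26 and 7 above 0 against C16 WT, where the fitted value of Mmp10 depends on the prior count because no C16 WT library held a read of it.

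In mice without the transgene no member was called in C16 WT against WT, and none of the 16094 tested genes was (0%). At an unadjusted p under 0.05 there were 7 members, Mmp19, Adamts15, Mmp11, Adamts14, Adamts1, Mmp15 and Adamts9, of which 5 were higher and 2 lower, against 3.3% and 4.15% of all genes. DESeq2 called 1 member and 34 genes in all, and limma-voom no member and 43 genes. In 6 members all 3 C16 WT libraries lay above all 3 WT libraries and in 1 below, against 6.61% and 7.96% of all genes. The gene DESeq2 called was Mmp19, with 0.279, 0.158 and 0.0934 CPM in C16 WT and 0.915, 0.507 and 1.44 CPM in WT, which do not overlap (log2 fold change -2.38, 95% interval -3.55 to -1.22, adjusted p = 0.530 with edgeR and 0.0387 with DESeq2). Adamts15 had 55.4, 51.7 and 84.9 CPM in C16 WT and 49.0, 40.7 and 32.5 CPM in WT (0.65, 95% interval 0.23 to 1.07). Timp2 and Timp3 had log2 differences of -0.27 (-0.64 to 0.10) and 0.15 (-0.16 to 0.46).

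Whether C16 changed the members differently in Tg26 and in WT mice was tested as an interaction. No member was called and no gene of the table was (0%), while 20 members had an unadjusted p under 0.05, all with a negative interaction, against 7.95% of all genes with a negative and 4.77% with a positive one. DESeq2 called 3 members and 158 genes in all, and limma-voom no member and 2 genes. Those 3 were Adamts1, Adamtsl4 and Timp2. For Adamts1 the interaction was -1.36 ± 0.28 on the log2 scale (adjusted p = 0.218 with edgeR and 0.00601 with DESeq2), for Adamtsl4 -1.35 ± 0.33 (0.243 and 0.0379) and for Timp2 -0.92 ± 0.24 (0.245 and 0.0446). For Mmp19 it was 0.49 ± 0.64 (95% interval -0.90 to 1.88). The fall of the 12 members under C16 in Tg26 mice is thus not shown by edgeR to differ from the change in WT mice.

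The proteins that activate or restrain MMPs from outside the family were counted as a group of 18, all tested. In Tg26 against WT 8 rose, among them Plaur, Serpine2, Cd44, Lcn2, Thbs1, Thbs2 and Lrp1, and 1, Bsg, fell, against 15.7% and 10.5% of all tested genes. Cd44, a surface receptor that can hold MMP9, had 46.0, 22.8 and 28.6 CPM in Tg26, against 1.28, 1.31 and 0.963 CPM in WT (log2 fold change 4.77, adjusted p = 0.000137). The convertase Furin, which removes the propeptide of Mmp14 and Mmp11, was not called, with 222, 261 and 259.9 CPM in Tg26 and 287, 324 and 289 CPM in WT, nor was the MMP inhibitor Reck (log2 fold change 0.02). In C16 Tg26 against Tg26 5 of the 18 fell, among them Serpine2, Thbs1, Thbs2 and Lrp1, against 2.66% of all tested genes. Without Tg26 replicate 1 that comparison called only 10 genes in all. In C16 Tg26 against C16 WT 1 of the 18, Cd44, was higher, against 0.69% of all tested genes.

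Of 8 tested partners of ADAM10 and ADAM17, which are iRhoms, their adaptor and tetraspanins, Tspan14 and Tspan17 rose in Tg26 against WT by 0.40 and 1.08 on the log2 scale, and none was called under C16. Of 9 tested metalloproteinases outside the symbol pattern, Bmp1, which removes the carboxy-terminal propeptide of procollagen, rose by 2.15 in Tg26 and fell by 1.32 in C16 Tg26 against Tg26, and Ece1, which makes endothelin, fell by 0.26 in Tg26 against WT. The other 7, among them the brush border enzymes Mep1a and Ace, were not called in any comparison.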

How the data were processed

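After trimming (cutadapt 1.18) and alignment to the mouse mm10 assembly (STAR 2.7.0f), the authors obtained expected counts per gene from RSEM 1.3.1, and the deposited expected counts were whole numbers already, so none was rounded. The strand setting of RSEM is not given in the sources used here. All 55450 gene IDs matched the GENCODE annotation of Ensembl release 96. Genes were filtered with filterByExpr and tested in 1 fit of all 4 groups with edgeR 4.0.16 (quasi-likelihood test, TMM, Benjamini-Hochberg adjustment over 16094 genes) in R 4.3.3. DESeq2 1.42.0 and limma 3.58.1 (voom with quality weights), RLE factors, library sizes alone, other filters, a replicate block, fits of 2 groups and fits without 1 library were alternatives. Values per library are given for the TIMPs, for members called in C16 Tg26 against Tg26, for the 15 with the smallest adjusted p in Tg26 against WT and for those lower there, and values of other members were added after they were seen. Members and lists were chosen with earlier results of these data known. With 3 mice per group, all 12 libraries share the estimate of the spread between mice. Libraries outside a comparison therefore affect its p-values. Simulated data tested the fit: of genes changed 2-fold, 46% were recovered in Tg26 against WT and 62% in C16 Tg26 against Tg26. Few genes were changed in those data, so these values do not give the power where many genes are called. The difference between the 2 percentages was not tested. One called gene of the regulator list is not reported here.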

Additional observations from a re-analysis of the deposited data

How the results depend on the processing

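In Tg26 against WT and in C16 Tg26 against Tg26, the fold changes of the 20 members chosen by the naming rule did not reverse under any alternative run. With 1 library left out, the members called in Tg26 against WT ranged from 28 to 39 higher and from 0 to 2 lower, those called lower in C16 Tg26 against Tg26 from 0 to 15, and those called higher in C16 Tg26 against C16 WT from 1 to 11. DESeq2 called 19 members lower and 1 higher in C16 Tg26 against Tg26, 1 lower in C16 WT against WT, 11 higher in C16 Tg26 against C16 WT and 3 lower in the interaction, and limma-voom called 12 higher in C16 Tg26 against C16 WT. With library sizes alone, or with only the 2 groups compared, 0 members were lower in Tg26 against WT. Fits of 2 groups gave 0 lower in C16 Tg26 against Tg26 and 4 higher in C16 Tg26 against C16 WT. The cause was not tested. A fit with the mean of Y-linked genes as a covariate was not run, since that mean varied little between libraries.

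Same-numbered libraries correlated in their deviations from the group means at -0.23 to 0.23, so the samples share only a number. With the replicate block, 36 members were higher and 2 lower in Tg26 against WT, 0 were lower in C16 Tg26 against Tg26 and 2 were higher in C16 Tg26 against C16 WT, while none was called in C16 WT against WT or in the interaction.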
